A study of Homo sapiens with 6 samples.

Results

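The genes described here are 10 genes of the NF-kB pathway: the subunits NFKB1, NFKB2 and RELB, the feedback inhibitors NFKBIA and TNFAIP3, and the inflammatory target genes ICAM1, IL1A, CCL2, CCL20 and CXCL1. They were chosen by symbol from the 17468 genes of the deposited table, and all 10 were found. NF-kB factors are dimers of Rel-family proteins that are held in the cytoplasm by inhibitor proteins and enter the nucleus when the inhibitor is degraded. In the canonical arm IκBα, the product of NFKBIA, is degraded; in the non-canonical arm the NFKB2 precursor is processed and pairs with RelB. The nuclear dimers switch on cytokines, chemokines and adhesion molecules, and also NFKBIA and TNFAIP3, whose products shut the pathway down again. In melanoma cells NF-kB activity is known for the constitutive release of chemokines.

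RNA was sequenced from 2 human melanoma cell lines, Colo800 and A375, in 6 libraries, 1 for each line and hairpin. In each line the groups were ETV1-sh2 and ETV1-sh1, 2 short hairpin RNAs against the ETS-family transcription factor ETV1, and a scrambled hairpin. All cells had been infected with a hairpin virus, and RNA was taken 4 days later, per the design text, which speaks of duplicate infections; no source used here says whether a library pools them. The sample labels also name a drug for each group (5 nM of the MEK inhibitor trametinib for ETV1-sh2, DMSO for ETV1-sh1 and 1 uM of the BRAF inhibitor vemurafenib for scrambled, with 48 hours of siRNA and 8 hours of drug), which the design text does not. Drug and hairpin go together in those labels and cannot be told apart. The sample records give 10% serum for all 6 samples. Levels are in FPKM, that is, fragments counted per kilobase of a transcript and scaled for library size.

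ETV1 itself was left at 5.43% of the scrambled level with ETV1-sh2 and at 30.3% with ETV1-sh1 in Colo800, and at 4.18% and 41.8% in A375. The 6 libraries had sums of 589256 to 710498 FPKM. Their absolute depth is unknown, and depth relative to the A375 scrambled library, from the steps between low values, lay between 0.768 and 2.10, highest in A375 ETV1-sh2. Of the melanocyte lineage markers, SOX10 was at 353 to 712 FPKM in every library, while DCT and TYR were at 70.8 to 125 and 14.8 to 84.9 FPKM in Colo800 and at most at 0.0657 and 0.0758 FPKM in A375. MITF was at 38.4 to 116 FPKM in Colo800 and 8.61 to 12.6 FPKM in A375. MLANA and TYRP1 were low in both lines, at most at 1.85 and 1.70 FPKM in Colo800 and at 0.481 and 0.604 FPKM in A375. Of 8 leukocyte markers, 4 stayed under 1 FPKM in all libraries, among them the pan-leukocyte gene PTPRC (at most 0.121 FPKM). Of the rest, LYZ was at 21.0, 19.8 and 12.2 FPKM in A375 with ETV1-sh2, ETV1-sh1 and scrambled. CSF1R reached 1.74 FPKM (A375 ETV1-sh2) and ITGB2 1.44 FPKM (A375 scrambled). The summed level of that list was 78.2 to 140.2 FPKM in 5 libraries and 329 FPKM in A375 ETV1-sh2, where the lysosomal gene CD68 alone stood at 306 FPKM. Of 5 fibroblast markers, 0 were under 1 FPKM in all libraries, and 3 of the 4 that passed the filter rose with ETV1-sh2 in limma: COL1A1 (log2 change 1.88, adjusted p = 0.00906), PDGFRB (1.25, 0.0213) and LUM (0.92, 0.0294). In the same fit 7.73% of all genes rose. Their list summed to 30.4 FPKM with ETV1-sh2, 12.9 with ETV1-sh1 and 9.83 with scrambled in Colo800, and to 36.0, 16.7 and 13.4 FPKM in A375. The melanocyte lineage marker S100B fell with both hairpins (log2 change -1.06 with ETV1-sh2, adjusted p = 0.0194, and -1.70 with ETV1-sh1, adjusted p = 0.0197). It was the only 1 of 6 tested lineage markers to pass, where 9% of all genes fell with ETV1-sh2 and 1.51% with ETV1-sh1. With ETV1-sh2 and ETV1-sh1 the fitted changes were 0.22 and 0.18 for TYRP1 and -0.59 and 0.67 for TYR. The S100B and fibroblast marker calls were lost with no filter on low values and with no line term. Of 4 endothelial markers 2 stayed under 1 FPKM in all libraries, while TIE1 and KDR reached 5.60 and 4.77 FPKM in A375 ETV1-sh1. Of 4 keratinocyte markers 3 stayed under 1 FPKM in all libraries, and KRT14 reached 9.72 FPKM in A375 scrambled. The part of these marker differences in the results was not tested. In bulk RNA, fewer expressing cells and less RNA per cell cannot be told apart.

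Most members with a promoter entry hold NF-kB-type letters near a transcription start. They were chosen as known genes of the NF-kB pathway, so this is not independent of their choice. RefSeq promoter windows on GRCh38.p14, from 250 bases before to 50 bases after a transcription start, were given for 8 of the 10 members, in 12 windows. RELB and CCL2 were not searched. GGG and TTCC parted by any 3 bases, a form of the NF-kB binding sequence, were found on one strand or the other in 7 of the 12 windows, which belong to 6 of the 8 members, against 6.52% of all 35116 windows. The letters GGAAATTCC, which can overlap them, were found in 4 of the 12 windows, those of NFKB1, NFKBIA, CXCL1 and ICAM1, against 0.461% of all windows. Both sets of letters were picked as known NF-kB sequences and with the members' matches in view, so the counts are a description. The match nearest a start is shown for each gene on the gene's own strand, 5′ to 3′, with the matched letters in capitals (GGG, any 3 bases and TTCC, or the reverse complement; for ICAM1 GGAAATTCC).
NFKB1 (chr4:102501300-102501329, plus strand): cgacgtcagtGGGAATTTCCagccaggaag
NFKB2 (chr10:102395674-102395703, plus strand): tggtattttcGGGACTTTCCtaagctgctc
NFKBIA (chr14:35404811-35404840, minus strand): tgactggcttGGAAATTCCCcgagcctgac
TNFAIP3 (chr6:137867194-137867223, plus strand): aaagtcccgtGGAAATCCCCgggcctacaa
CCL20 (chr2:227813753-227813782, plus strand): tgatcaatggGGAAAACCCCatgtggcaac
CXCL1 (chr4:73869305-73869334, plus strand): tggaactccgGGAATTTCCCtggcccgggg
ICAM1 (chr19:10270924-10270952, plus strand): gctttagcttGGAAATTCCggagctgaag
The first base of these matches lies 49 bases upstream of the start for NFKB1, 21 for NFKB2, 81 for NFKBIA, 55 for TNFAIP3, 79 for CCL20, 78 for CXCL1 and 186 for ICAM1. IL1A had neither set of letters in its windows. The ETS-type letters CCGGAAG were found in 1 of the 12 windows, that of CXCL1, against 10.3% of all windows.

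ICAM1 stood below scrambled in all 4 ETV1 hairpin libraries and fell with ETV1-sh2 in the test. TNFAIP3 also fell with ETV1-sh2, and stood above scrambled with ETV1-sh1 in both lines. IL1A and CXCL1 stood far below scrambled in A375 ETV1-sh2, and no difference of the hairpin effect between the lines passed a test. The subunits did not pass a test in any hairpin comparison. Each value below is 1 library, and the comparisons of both hairpins share the scrambled libraries. Tests are from limma on log2(FPKM + 1) over 11129 genes, with the line as a term, two-sided and adjusted by the Benjamini-Hochberg method with a threshold of 0.05.

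**Figure D1:**
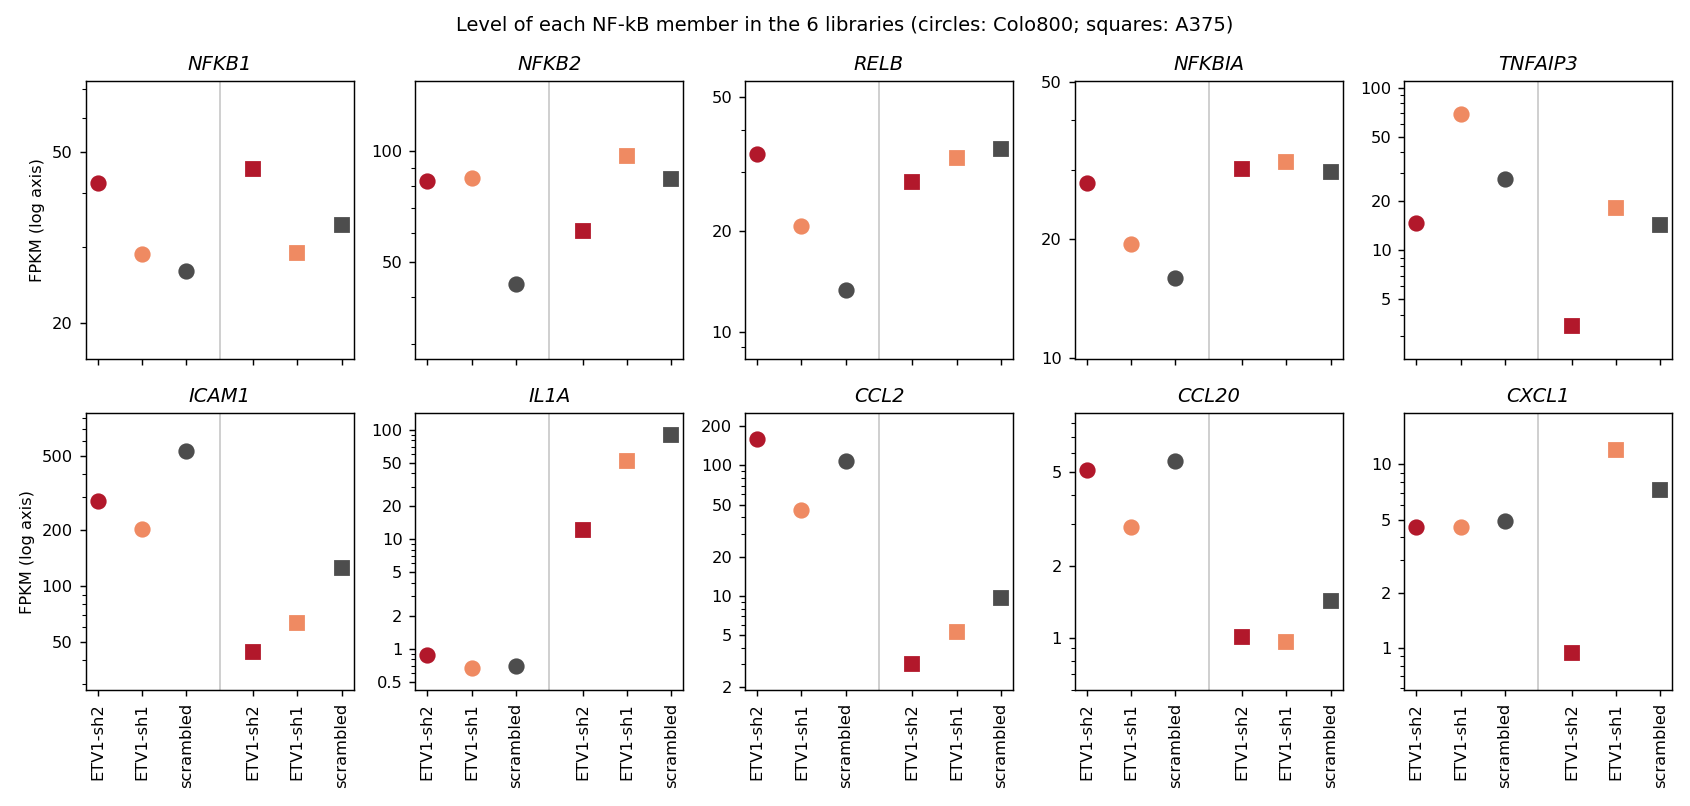
FPKM (log axis) of the 10 members, 1 panel a gene, in the ETV1-sh2, ETV1-sh1 and scrambled libraries of Colo800 (circles) and of A375 (squares); each point is 1 library. ICAM1 is highest with scrambled in both lines, TNFAIP3 is lowest with ETV1-sh2 and highest with ETV1-sh1 in both lines, and IL1A lies under 1 FPKM in all Colo800 libraries.

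NFKB1 (ENSG00000109320) encodes p105, the precursor of the p50 subunit. It was at 42.3 FPKM with ETV1-sh2, 28.9 with ETV1-sh1 and 26.4 with scrambled in Colo800, and at 45.6, 29.0 and 33.8 FPKM in A375. The ETV1-sh2 library was the highest of each line, at 160.1% and 135% of scrambled, while the ETV1-sh1 library lay close to scrambled. The fitted log2 change with ETV1-sh2 was 0.54 (SE 0.172, adjusted p = 0.0781 in limma), which misses the threshold.

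NFKB2 (ENSG00000077150) encodes p100, the precursor of p52 and of the non-canonical arm. Its level was 82.9 FPKM with ETV1-sh2, 84.2 with ETV1-sh1 and 43.6 with scrambled in Colo800, against 60.6, 96.5 and 84.0 FPKM in A375. In Colo800 both hairpin libraries stood above scrambled, at 189.9% and 193% of it. In A375 the scrambled value lay between those of the hairpins.

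RELB (ENSG00000104856), the partner of p52, was at 33.9 FPKM with ETV1-sh2, 20.7 with ETV1-sh1 and 13.3 with scrambled in Colo800. The A375 libraries had 27.9, 32.9 and 34.9 FPKM. Both hairpin libraries stood above scrambled in Colo800 (256% and 156% of it) and both stood below it in A375 (80.0% and 94.3%). The difference of the hairpin effect between lines, Colo800 minus A375, was 1.15 on the log2 scale for RELB (SE 0.602) and 1.05 for NFKB2 (SE 0.553). Neither passed in limma, and nor did any of the 11129 genes (adjusted p of both members = 1.00; 66 genes and 0 members had an unadjusted p under 0.05).

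NFKBIA (ENSG00000100906), the canonical inhibitor, was at 27.8 FPKM with ETV1-sh2, 19.4 with ETV1-sh1 and 15.95 with scrambled in Colo800. In A375 it was at 30.2, 31.5 and 29.7 FPKM. Both hairpin libraries stood above scrambled in Colo800, and the A375 libraries lay close together. No hairpin comparison passed for it.

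TNFAIP3 (ENSG00000118503) encodes A20, a ubiquitin-editing enzyme that ends signalling from the tumour necrosis factor and Toll-like receptors. It was at 14.8 FPKM with ETV1-sh2, 68.5 with ETV1-sh1 and 27.5 with scrambled in Colo800. In A375 it was at 3.45, 18.2 and 14.4 FPKM. The scrambled value lay between the hairpins in both lines: ETV1-sh2 left 53.9% and 24.0% of it, and ETV1-sh1 stood at 249% and 126%. TNFAIP3 fell with ETV1-sh2 (log2 change -1.32, SE 0.275, adjusted p = 0.0281 in limma). With ETV1-sh1 the fitted change was 0.80 (SE 0.275, adjusted p = 0.197). Set directly against each other, a comparison added after the values were seen, ETV1-sh2 was lower than ETV1-sh1 by -2.12 on the log2 scale (SE 0.275, adjusted p = 0.00948 in limma). It was the only member to pass between the hairpins, where 13.7% of all genes passed, 6.91% lower and 6.82% higher. Both calls were lost with no filter on low values (adjusted p = 0.102 against scrambled and 0.0672 between hairpins) and with no line term (0.828 and 0.731). The call against scrambled was lost without Colo800 ETV1-sh1 (adjusted p = 0.0601), A375 ETV1-sh1 (0.0596), A375 ETV1-sh2 (0.0593) or A375 scrambled (-0.84 on the log2 scale, 0.155), and the call between hairpins without Colo800 ETV1-sh1 (0.0949) or A375 ETV1-sh1 (0.0996).

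ICAM1 (ENSG00000090339), the adhesion molecule that leukocyte integrins bind, had the highest FPKM of the members in every Colo800 library. It was at 285 FPKM with ETV1-sh2, 203 with ETV1-sh1 and 533 with scrambled in Colo800. In A375 it was at 44.0, 63.6 and 125 FPKM. All 4 hairpin libraries stood below the scrambled library of their line, at 53.5% and 38.1% of it in Colo800 and at 35.1% and 50.8% in A375. ICAM1 fell with ETV1-sh2 (log2 change -1.19, SE 0.250, adjusted p = 0.0282 in limma). With ETV1-sh1 the fitted change was -1.18 (SE 0.250), which missed the threshold (adjusted p = 0.0774, limma). With both hairpins pooled, where a difference between hairpins counts as spread, it was -1.19 (SE 0.239, adjusted p = 0.279 in limma). The ETV1-sh2 call was lost with no filter on low values (adjusted p = 0.10) and with no line term (0.922). It was also lost without A375 ETV1-sh2 (-0.79 on the log2 scale, adjusted p = 0.0687), Colo800 scrambled (0.110) or A375 scrambled (0.143). The ETV1-sh1 comparison passed without Colo800 ETV1-sh2 (0.00611) or A375 ETV1-sh2 (0.00631).

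IL1A (ENSG00000115008), the cytokine interleukin-1 alpha, was at 0.873, 0.665 and 0.693 FPKM in Colo800 with ETV1-sh2, ETV1-sh1 and scrambled. In A375 it was at 12.1 FPKM with ETV1-sh2, 51.6 with ETV1-sh1 and 89.2 with scrambled. The A375 values were spread over a wide range, 13.6% and 57.9% of scrambled with the hairpins, whereas Colo800 stayed near its low level. Over both lines the fitted change with ETV1-sh2 was -1.32 (SE 0.632, adjusted p = 0.188 in limma). It depended on the library left out: it was -2.59 without Colo800 ETV1-sh2 and -2.24 without Colo800 scrambled, but -0.04 without A375 ETV1-sh2 and -0.40 without A375 scrambled. Each of these fits leaves 1 library in a group, whose own spread is then not measured. The change with ETV1-sh2 passed in 1 of 11 alternatives, the fit without Colo800 ETV1-sh2, where it rests on A375 ETV1-sh2 alone. The difference between lines was 1.84 (SE 1.18), which did not pass.

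CCL2 (ENSG00000108691), a chemokine for monocytes, was at 158 FPKM with ETV1-sh2, 45.5 with ETV1-sh1 and 107 with scrambled in Colo800. Its A375 levels were 3.02, 5.34 and 9.72 FPKM. Both hairpins stood below scrambled in A375 (31.0% and 54.9% of it), while in Colo800 ETV1-sh2 stood above it and ETV1-sh1 below (148% and 42.4%). CCL20 (ENSG00000115009), a chemokine for CCR6-bearing lymphocytes and dendritic cells, was at 5.10, 2.92 and 5.53 FPKM in Colo800 and at 1.01, 0.958 and 1.43 FPKM in A375. All 4 of its hairpin libraries stood below scrambled, at 92.2% and 52.7% in Colo800 and 70.7% and 67.1% in A375, and no hairpin comparison passed for it.

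CXCL1 (ENSG00000163739), a chemokine for neutrophils first described as a melanoma growth factor, was at 4.57, 4.56 and 4.90 FPKM in Colo800. In A375 it was at 0.936 FPKM with ETV1-sh2, 11.97 with ETV1-sh1 and 7.29 with scrambled. The A375 libraries lay far apart, with 12.8% of scrambled left under ETV1-sh2 and 164% under ETV1-sh1. The fitted change with ETV1-sh2 was -1.09 (SE 0.598, adjusted p = 0.239 in limma). Without Colo800 ETV1-sh2 it was -2.28, and without A375 ETV1-sh2 it was 0.10. In each of these 2 fits the change rests on 1 ETV1-sh2 library, whose spread is not measured. CXCL1 has near-identical neighbours, CXCL2 and CXCL3, and no source used here says how reads were shared among them.

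Over the 10 members, 2 fell and 0 rose with ETV1-sh2, where 9% of all genes fell and 7.73% rose (16.7% in either direction). None passed with ETV1-sh1, where 1.51% of all genes fell and 0.773% rose, 2.28% in all (2 members, ICAM1 and TNFAIP3, had an unadjusted p under 0.05). With both hairpins pooled 0 members and 0% of all genes passed in limma, and 1 member and 1204 genes had an unadjusted p under 0.05. The median fitted log2 change of the members was -0.31 with ETV1-sh2 and 0.07 with ETV1-sh1, beside 0.05 and 0.00 for all genes tested. By role, the median was 0.49 with ETV1-sh2 and 0.26 with ETV1-sh1 for the 3 subunits, and -1.09 and -0.52 for the 5 targets. The 2 inhibitors went opposite ways with ETV1-sh2, NFKBIA at 0.39 and TNFAIP3 at -1.32. The targets' median with ETV1-sh2 was -0.08 in Colo800 and -1.49 in A375, 1 library against 1. The 10 other target genes tested had a fitted median of -0.07 with ETV1-sh2. The 3 fibroblast markers named above rose in the same ETV1-sh2 comparison, and their part in these values was not tested. A change of at least 2-fold, 1 library against 1, was seen in A375 ETV1-sh2 for 5 members, all lower: TNFAIP3, ICAM1, IL1A, CCL2 and CXCL1, where 8.29% of all genes were that much lower, 6.93% higher and 15.2% either. In A375 ETV1-sh1 no member was past 2-fold, against 3.89% of all genes lower, 2.77% higher and 6.66% either. In Colo800 ETV1-sh2 RELB was past 2-fold higher (5.18% of all genes were) and none was past 2-fold lower (6.38%; 11.6% either). In Colo800 ETV1-sh1 ICAM1 and CCL2 were past 2-fold lower (3.96%) and TNFAIP3 was past 2-fold higher (2.54%; 6.51% either). These 1-against-1 counts have no replicate check.

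**Figure D2:**
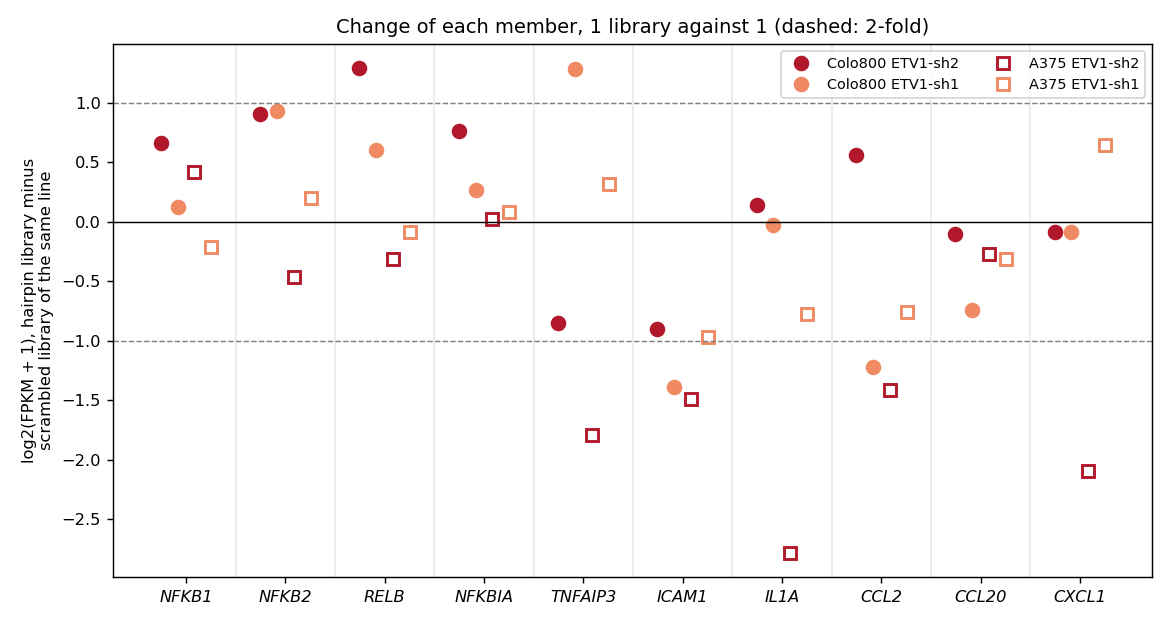
Difference in log2(FPKM + 1) of each member between a hairpin library and the scrambled library of its line; filled circles are Colo800, open squares A375, dark red ETV1-sh2 and orange ETV1-sh1, and dashed lines mark 2-fold. The A375 ETV1-sh2 points of TNFAIP3, ICAM1, IL1A, CCL2 and CXCL1 lie below the lower line, and the subunits lie between the lines except RELB in Colo800 ETV1-sh2.

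Other genes of the pathway, 61 of them in the table and 51 passing the filter of a mean of at least 1 FPKM, were examined in the same fits. With ETV1-sh2 6 of the 51 fell and 1 rose, and with ETV1-sh1 1 fell and 0 rose. These counts stand beside 9% of all genes lower and 7.73% higher with ETV1-sh2, and 1.51% lower and 0.773% higher with ETV1-sh1. The counts lower with each hairpin are near those shares, while 1 of 51 higher with ETV1-sh2 is a smaller share than 7.73%. All 7 ETV1-sh2 calls were lost with no filter on low values and with no line term. The remaining subunits did not pass: RELA, the main transactivating subunit, was at 44.3, 46.6 and 46.3 FPKM in Colo800 and 59.1, 59.3 and 58.5 FPKM in A375, in the order ETV1-sh2, ETV1-sh1 and scrambled. REL was at 2.84, 3.18 and 1.94 FPKM in Colo800 and 2.70, 3.66 and 2.02 FPKM in A375, above scrambled in all 4 hairpin libraries.

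Of the 10 other inhibitors 2 fell with ETV1-sh2, beside 9% of all genes. NFKBIE, which encodes IκBε, was at 10.04, 19.96 and 15.7 FPKM in Colo800 and at 4.36, 8.40 and 10.4 FPKM in A375 with ETV1-sh2, ETV1-sh1 and scrambled (log2 change with ETV1-sh2 -0.84, adjusted p = 0.0473 in limma). That call held in 2 of 11 alternatives and was lost without any 1 of the 6 libraries. OTUD7B, a deubiquitinase that restrains the non-canonical arm, fell with both hairpins. It was at 18.8, 15.5 and 42.6 FPKM in Colo800 and 21.1, 11.8 and 33.0 FPKM in A375 (log2 change -0.88 with ETV1-sh2, adjusted p = 0.0346, and -1.41 with ETV1-sh1, adjusted p = 0.0338). Each of its calls held in 4 of 11 alternatives. The ETV1-sh2 call was lost without any 1 library other than A375 ETV1-sh2, and the ETV1-sh1 call without either ETV1-sh1 or either scrambled library.

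Of the 20 kinases and adaptors 2 fell with ETV1-sh2, about the 9% of all genes that did, and none passed with ETV1-sh1. BIRC2, the ubiquitin ligase cIAP1, was at 9.06 FPKM with ETV1-sh2, 23.4 with ETV1-sh1 and 20.9 with scrambled in Colo800, and at 11.5, 41.2 and 31.05 FPKM in A375 (log2 change -1.24 with ETV1-sh2, adjusted p = 0.0152). TRAF2, the adaptor that binds it, was at 8.29, 17.2 and 17.9 FPKM in Colo800 and 7.99, 20.7 and 20.1 FPKM in A375 (log2 change -1.13, adjusted p = 0.0164). Between the hairpins, 2 of the 20 were lower with ETV1-sh2 and 1 was higher, beside 6.91% and 6.82% of all genes. Of the 51 other pathway genes 4 were lower and 3 higher. The higher gene of this list was the adaptor TRADD (0.88, adjusted p = 0.0393 in limma). The 2 lower of this list were BIRC2 (-1.51, adjusted p = 0.00914) and TRAF2 (-1.12, adjusted p = 0.0155). The calls against scrambled held in 7 of 11 alternatives for each gene and were lost without either scrambled library. Those between hairpins also held in 7 of 11, and were lost without either ETV1-sh1 library.

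Among 9 receptors 2 fell and 1 rose with ETV1-sh2, beside 9% and 7.73% of all genes. IL1RAP, the accessory chain of the interleukin-1 receptor, was at 33.7, 137 and 149 FPKM in Colo800 and at 7.03, 56.2 and 20.3 FPKM in A375 (log2 change -1.76, adjusted p = 0.0246). The lymphotoxin receptor LTBR was at 66.95, 112 and 129 FPKM in Colo800 and 55.6, 78.2 and 85.97 FPKM in A375 (log2 change -0.78, adjusted p = 0.0285). TNFRSF12A, the receptor for the cytokine TWEAK, rose: it was at 299.6, 283 and 117 FPKM in Colo800 and 329, 329.6 and 208 FPKM in A375 (log2 change 1.00, adjusted p = 0.0284). The LTBR and TNFRSF12A calls each held in 4 of 11 alternatives and were lost without any 1 library other than A375 ETV1-sh2. The IL1RAP call held in 8 and was lost without Colo800 scrambled (-1.20, adjusted p = 0.105). Of the 10 other target genes that passed the filter none passed with either hairpin. The 2 with the largest statistic in the pooled fit were CSF1, the macrophage growth factor, at 21.8, 31.3 and 32.8 FPKM in Colo800 and 4.64, 5.83 and 9.63 FPKM in A375, and IL1B, at 12.8, 5.03 and 7.55 FPKM in Colo800 and 7.72, 3.61 and 23.04 FPKM in A375.

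**Figure D3:**
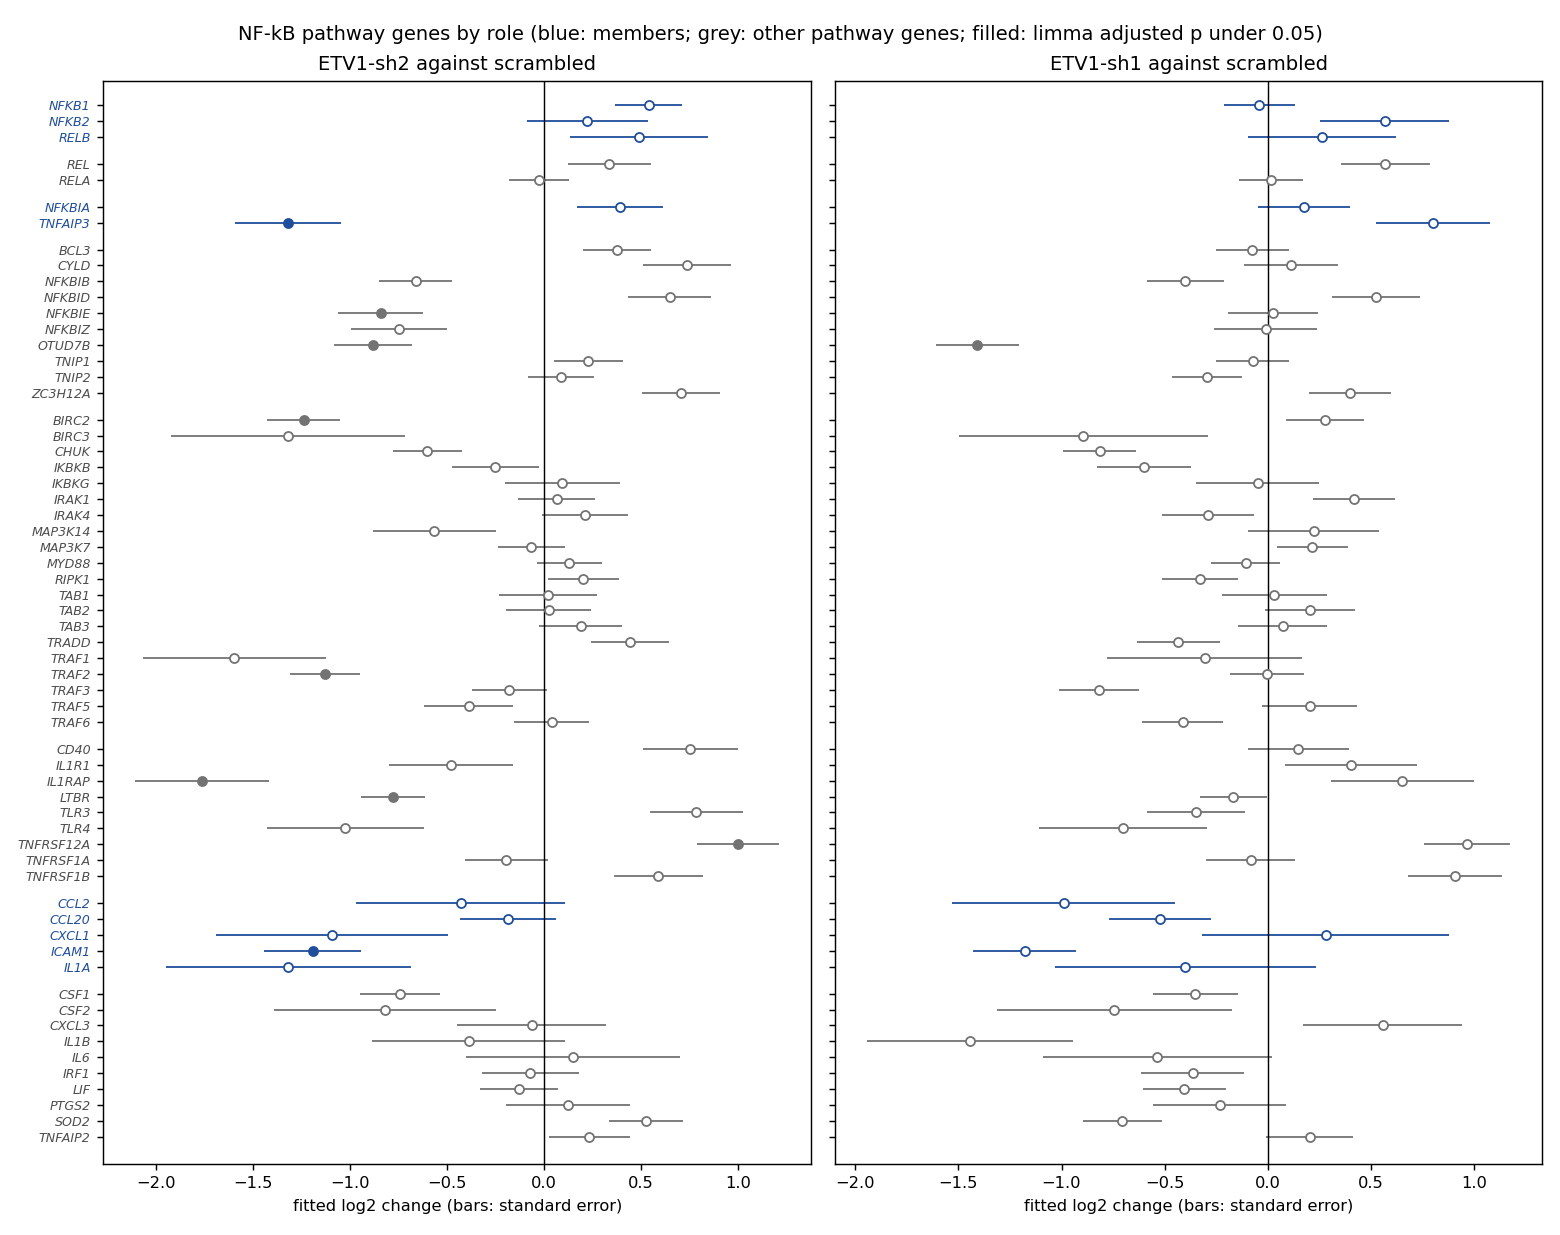
Fitted log2 change over both lines (x axis; bars are the standard error) for the 10 members (blue) and 51 other pathway genes (grey), grouped by role from subunits to targets, for ETV1-sh2 on the left and ETV1-sh1 on the right; filled points passed an adjusted p of 0.05 in limma. With ETV1-sh2 2 members and 7 other genes are filled, and with ETV1-sh1 OTUD7B alone.

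Between the lines 4 members were higher and 2 lower in Colo800. Its libraries had more ICAM1, CCL2, CCL20 and TNFAIP3 and less IL1A and NFKBIA than A375 libraries, by the limma fit over 3 libraries a line with the hairpin as a term. Those 6 of 10 members stand beside 57.1% of all genes that differed between the lines (25.3% lower and 31.8% higher in Colo800), so the count is near the background. CCL2 was 52.5, 8.53 and 11.03 times as high in Colo800 as in A375 with ETV1-sh2, ETV1-sh1 and scrambled (fitted log2 difference 3.84, SE 0.440, adjusted p = 0.000887). ICAM1 was 6.48, 3.19 and 4.25 times as high (2.14, SE 0.204, adjusted p = 0.000488). CCL20 was 5.06, 3.04 and 3.87 times as high (1.34, SE 0.202, adjusted p = 0.00228), and TNFAIP3 4.30, 3.78 and 1.91 times (1.53, SE 0.225, adjusted p = 0.00211). The lines overlapped for TNFAIP3, whose Colo800 ETV1-sh2 library (14.8 FPKM) lay below A375 ETV1-sh1 (18.2).

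IL1A went the other way. Its 3 Colo800 libraries were all under 1 FPKM and its 3 A375 libraries all at 12.1 FPKM or more (-4.51, SE 0.516, adjusted p = 0.000879). IL1A passed the filter on low values only through its A375 libraries. The same difference thus decided that it was tested, and its p-value is no separate support. NFKBIA was lower in Colo800 by a small margin (-0.55, SE 0.181, adjusted p = 0.0403), and this call was lost with no filter on low values (0.0801) and without Colo800 ETV1-sh1 (0.153), Colo800 scrambled (0.214), A375 ETV1-sh1 (0.155) or A375 scrambled (0.215). NFKB1, NFKB2, RELB and CXCL1 did not pass. With the scrambled libraries alone, 5 members were at least 2-fold apart, RELB and IL1A lower in Colo800 (13.4% of all genes were) and ICAM1, CCL2 and CCL20 higher (17.2%), beside 30.7% of all genes in either direction.

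**Figure D4:**
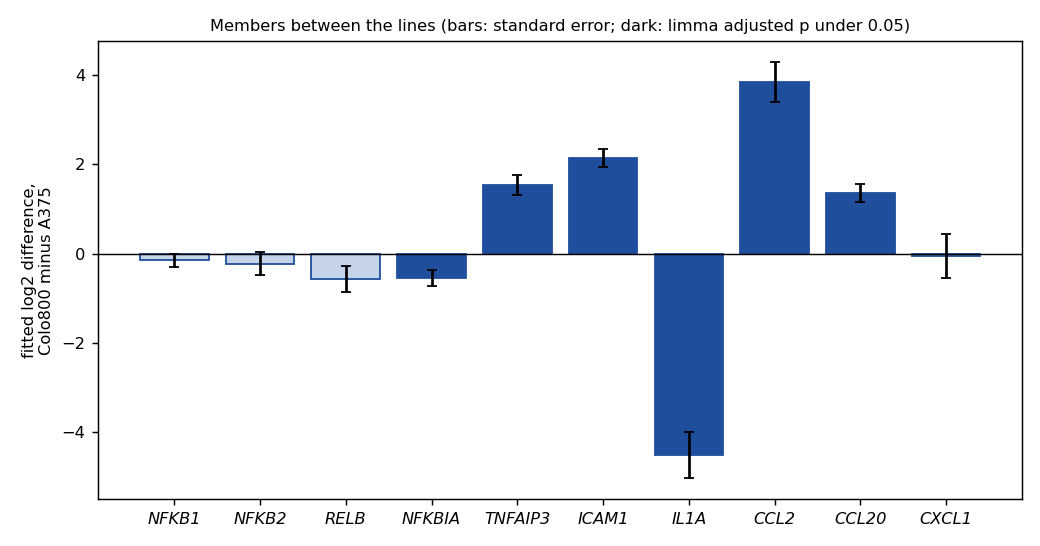
Fitted difference in log2(FPKM + 1) between Colo800 and A375 (y axis, Colo800 minus A375) for the 10 members over 3 libraries a line; error bars are the standard error and dark bars passed an adjusted p of 0.05 in limma. CCL2, ICAM1, TNFAIP3 and CCL20 stand above 0 and IL1A, at -4.51, far below it.

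Of the 51 other pathway genes 11 were higher and 13 lower in Colo800, beside 31.8% of all genes higher and 25.3% lower. LIF, a cytokine of the interleukin-6 family, was at 928, 696 and 799 FPKM in Colo800 against 63.98, 57.97 and 89.1 FPKM in A375 (3.52, adjusted p = 6.87e-05). CSF1 differed by 1.98 (adjusted p = 0.000347). The interleukin-1 receptor chains were both higher in Colo800, the line with little IL1A. IL1R1 differed by 2.87 (adjusted p = 0.000409) and IL1RAP by 2.07 (adjusted p = 0.00159). With ETV1-sh2, ETV1-sh1 and scrambled, IL1R1 was at 6.10, 15.0 and 14.2 FPKM in Colo800 and 0.478, 1.23 and 0.345 FPKM in A375. It passed the filter on low values only through Colo800. The adaptor TRAF1 (2.04, adjusted p = 0.00535) and NFKBIE (0.91, adjusted p = 0.00599) were higher too. The receptor CD40 (-2.03, adjusted p = 0.00054), the kinase IRAK1 (-1.33, adjusted p = 0.00108), the deubiquitinase CYLD (-0.66, adjusted p = 0.0232) and RELA (-0.36, adjusted p = 0.0478) were lower in Colo800. CD40 was under 1 FPKM in every Colo800 library and passed the filter on low values only through A375. Its p-value, like that of IL1R1, is thus no separate support. The RELA call held in 3 of 10 alternatives (adjusted p up to 0.184) and was lost without any 1 of the 6 libraries. The CYLD call held in 5 of 10 (adjusted p up to 0.137) and was lost with no filter on low values and without either ETV1-sh1 or either scrambled library.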

How the data were processed

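RNA sequencing of 6 libraries was analysed from FPKM values, which the authors made with STAR 2.4, Cufflinks 2.2.1 and Cuffnorm on hg19, per the submitters' processing notes. No source used here gives the annotation, filters, strandedness or scaling method. Members and gene lists were chosen with earlier results of these data known. Values were taken as log2(FPKM + 1), which understates changes of low genes, and 11129 genes with a mean of at least 1 FPKM were tested in limma 3.58.1 (R 4.3.3, eBayes with a variance trend, Benjamini-Hochberg adjustment). Both hairpins pooled were fitted with the line as a block (3 residual degrees of freedom), each hairpin and the lines with line and 3 hairpin levels (2), and the difference between lines with separate hairpin effects in each line (2). The libraries of a line are paired by the cell line. No source says whether they come from separate cultures; the p-values reflect no more than the scatter among 6 libraries, which may be technical. The comparison of the hairpins with each other was added after the data were seen. Named besides the members are ETV1, list genes past the threshold with a hairpin, filled up to 2 a list by the largest statistic in the pooled fit, and 2 a list for the lines. CXCL8, PMEL and PECAM1 were not analysed here. The fits were tried on simulated data with independent noise and the same effect of both hairpins in both lines. Such data cannot speak to hairpins that differ or to calls lost when a setting changes. Alternatives were a pseudocount of 0.1, no filter, median-ratio scaling, no variance trend, no line term and each library left out.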

Additional observations from a re-analysis of the deposited data

How the results depend on the processing

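The pooled fit and the difference of the hairpin effect between lines called 0 genes under every alternative that could be fitted; the second has no value without a scrambled library. With no filter on low values, and likewise with no replicate block (the cell line term left out), 0 genes passed for ETV1-sh2 against scrambled, ETV1-sh1 against scrambled and ETV1-sh2 against ETV1-sh1, in place of 1862, 254 and 1528, and 0 members in place of 2 for the first and of 1 for the last. With no variance trend 119 genes passed with ETV1-sh1. With 1 library left out the counts ran from 83 to 1974 genes and 0 to 5 members for ETV1-sh2, from 0 to 834 genes and 0 to 2 members for ETV1-sh1, and from 0 to 1739 genes and 0 to 3 members between hairpins; between Colo800 and A375 they ran from 4401 to 5797 genes and 5 to 9 members. Fits without a library have 1 residual degree of freedom with 3 hairpin levels, and a group left with 1 library is assumed to vary like the others. A p-value for such a group does not measure its own spread. The CXCL1 change with ETV1-sh2 ran from -2.28 to 0.10 with a library left out, reversed without A375 ETV1-sh2. Median-ratio scaling and the pseudocount of 0.1 changed no count by over 1.5 times, and median-ratio scaling put NFKB2 past 2-fold lower in Colo800 scrambled against A375 scrambled. The line split under that scaling was 3283 genes lower and 3110 higher, against 2811 and 3542. The causes were not tested.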

Other observations

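In A375 several further NF-kB pathway genes stood below scrambled with both hairpins; they were chosen after their values were seen. TRAF1 was at 1.04 FPKM with ETV1-sh2, 3.84 with ETV1-sh1 and 10.8 with scrambled. BIRC3, the ubiquitin ligase cIAP2, was at 2.36, 7.08 and 21.6 FPKM, and the cytokine CSF2 at 0.662, 1.46 and 6.22 FPKM. In Colo800 the same genes were at 11.6, 30.9 and 19.1 FPKM (TRAF1), 4.57, 3.18 and 4.16 FPKM (BIRC3) and 1.07, 0.557 and 0.488 FPKM (CSF2). None of the 3 passed in limma for a hairpin, and the difference of the hairpin effect between lines passed for none. Other pathway genes stood above scrambled with both hairpins in A375. Among them, with ETV1-sh2 and ETV1-sh1, were CD40 (212% and 143% of scrambled), TNFRSF12A (158% and 158%) and REL (134% and 181%). TNFRSF12A and REL stood above scrambled in Colo800 too, at 256% and 242% and at 146% and 164%. CD40 was at 324% and 65.5% of scrambled there, but under 1 FPKM in every Colo800 library. The share of all genes below scrambled with both hairpins was not computed.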
